A study of Mus musculus with 9 samples.

Results

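Sciatic nerves of PINCH1 mutant mice were compared with those of control littermates across 4440 gene entries, called rows here, of 25965 in the count table. A row entered if it had at least 10 counts in at least 3 of the 6 libraries. Because the strand to which most counts belong was in doubt, each row was read beside its partner, meaning any row whose span overlapped it on the opposite strand. Of the 4440 rows, 2462 (55.5%) had such a partner, against 24.8% of all rows of the table, and 2163 shared exonic bases with it in the GENCODE M21 annotation of build GRCm38. Of the rows with a partner, 418 had more than 1, and partners are named beside most rows described.

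All mice had the C57BL/6 background. The groups were 3 libraries of control littermates and 3 of mice whose genotype label reads PINCH1 mutant, and each library was made from the total RNA of 4 nerves pooled from 1 male and 1 female, frozen after the epineurium had been removed. The age was postnatal day 15 in the sample label and day 14 in the protocol. The sources used here do not give the alleles, any Cre driver, the genotype of the controls beyond the word control, or which cells lacked PINCH1. The table also held 3 PINCH2 mutant libraries, which were not compared here but entered the scaling and the estimate of the spread between replicates.

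PINCH1, encoded by Lims1, is an adaptor protein built of LIM domains. It joins integrin-linked kinase and parvin in a complex at the inner side of integrin adhesions and connects the extracellular matrix to actin. In peripheral nerve, Schwann cells use laminin-binding integrins and this complex when they sort axons from bundles and wrap them in myelin. Lims2 encodes the closely related PINCH2.

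The 6 libraries held 957828 to 1204398 counts, and 97.1% to 98.2% of these fell on the 4440 rows. Levels are given as counts or as CPM, counts scaled to the library total with TMM factors. A count of 0 allows up to 3 counts, or 2.50 to 3.34 CPM depending on the library, for counting error only. Among values from 1 to 4, 83.7% were odd, against 50.5% of values over 50, and what that does to low values was not tested.

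The most abundant rows show why partners had to be read. The 10 rows with the highest mean CPM all overlapped a row on the opposite strand, and several of those partners are genes known from myelinating Schwann cells. Gm17035 had 25715, 32542 and 30811 counts in control libraries 2, 1 and 3, and its partner Ndrg1, which is needed to maintain peripheral myelin, had 215 to 457 counts over all 6. Per kilobase of annotated exon, Gm17035 had 68947 counts and Ndrg1 45.5. Gm15541 lay over Prx, which encodes periaxin, a protein that Schwann cells need to keep myelin stable, with 3116 against 98.5 counts per kilobase. Fxyd3 lay over Lgi4, a Schwann cell signal for axon sorting, with 2252 against 367. Each of these rows had far more counts per kilobase than the gene on its other strand.

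The mitochondrial pair shows the same on a short and fully annotated genome. mt-Nd6, a complex I subunit on the light strand, had 94108 to 130509 counts and mt-Nd5, a complex I subunit on the heavy strand, had 1951 to 4627. The stretch that both spans share is chrM:13552-13565 in GRCm38 and is printed below on the plus strand, from the annotation's transcript sequences, because it is the only stretch that lies in both rows. Capitals mark the last codon of mt-Nd5 at the right and the reverse complement of the last codon of mt-Nd6 at the left.
mt-Nd5 / mt-Nd6 overlap: TTAatctcgagTAA
These 14 bases are 2.70% of the 519 bases of mt-Nd6. Per kilobase of exon, mt-Nd6 had 205329 counts and mt-Nd5 1636. Neither row passed the test between the groups: the log2 fold change was 0.10 (SE 0.12) for mt-Nd6 and 0.23 (SE 0.29) for mt-Nd5.

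The targeted gene was scarcely counted. Lims1 had 3, 7 and 7 counts in the control libraries and 0, 1 and 3 in the PINCH1 mutant libraries, too few for the filter, and no row overlapped it on the other strand. Tested without a filter, its adjusted p was 0.806 by edgeR's quasi-likelihood test, so the table gave no firm check of the genotype labels. Lims2 had 9, 1 and 5 against 5, 3 and 1 counts. The row on the opposite strand of Lims2 is Gpr17, named for a G protein-coupled receptor, and it had 321, 211 and 380 counts in controls and 330, 244 and 425 in mutants, with a log2 fold change of 0.10 (SE 0.23). The Gpr17 row thus overlapped between the groups.

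Between PINCH1 mutant and control nerves, 1 row rose and 2 fell at an adjusted p under 0.05, which is 0.0676% of the rows tested. At an unadjusted p under 0.05 there were 275 rows (6.19%), of which 97 were higher in mutants (2.18%) and 178 lower (4.01%). The CPM of the groups did not overlap for 598 rows (13.5%), 279 of them higher (6.28%) and 319 lower (7.18%). None of the 3 rows that passed had a partner in the table.

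Zdhhc17 encodes a palmitoyltransferase, an enzyme that attaches fatty acid chains to proteins. Its row (ENSMUSG00000035798, chr10:110941782-111010066, minus strand) had 73, 74 and 93 counts in the controls and 495, 321 and 451 in the mutants. Every mutant library stood far above every control. The mean level rose from 76.1 ± 6.43 CPM to 396 ± 52.3 CPM (SD, n = 3 each), a fitted 5.20-fold difference and a log2 fold change of 2.38 (SE 0.19, edgeR quasi-likelihood adjusted p = 1.93e-07). It passed in each of 19 alternative settings. No row overlapped Zdhhc17, and the nearest row on the opposite strand, Csrp2, which encodes a LIM domain protein, ended 2183 bp from its end. Csrp2 had 8, 2 and 4 against 19, 9 and 8 counts and did not reach the filter. Without a filter its log2 fold change was 1.31 (SE 0.84, adjusted p = 0.806). Zdhhc17 lies 52.5 Mb from Lims1 on the same chromosome.

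Camk4 encodes a calcium and calmodulin dependent kinase that acts on transcription factors in neurons and lymphocytes. Its row (ENSMUSG00000038128, chr18:32939041-33195767, plus strand) had 110, 53 and 136 counts in the controls and 27, 26 and 43 in the mutants. The groups did not overlap, but control library 2 lay closer to the mutants than to the other controls. The mean level fell from 95.0 ± 39.1 to 29.9 ± 5.51 CPM (SD, n = 3 each), a log2 fold change of -1.66 (SE 0.31, edgeR adjusted p = 0.0375). No row of the table overlapped Camk4, but the GENCODE annotation has 2310026I22Rik on its opposite strand, which was not analysed here. The nearest opposite-strand row of the table, Stard4, was 3588 bp away and had 5, 9 and 1 against 9, 0 and 1 counts. Camk4 passed in 9 of 19 alternatives. Its adjusted p was 0.180 without control library 1, 0.352 without control library 3, and 0.396, 0.149 and 0.134 without mutant library 1, 2 or 3.

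RP24-538B17.1, an annotated transcript of no stated function (ENSMUSG00000095123, chr10:4391587-4396424, plus strand), had 54, 55 and 34 counts in the controls and 15, 9 and 9 in the mutants. All 3 mutant libraries lay below all controls. The level fell from 46.1 ± 13.9 to 10.4 ± 3.18 CPM (SD, n = 3 each), with a log2 fold change of -2.13 (SE 0.39, edgeR adjusted p = 0.0375). It too passed in 9 of 19 alternatives, and its adjusted p was 0.146 and 0.0632 without control library 1 or 2, and 0.111, 0.149 and 0.344 without mutant library 1, 2 or 3. The nearest opposite-strand row, Zbtb2, began 3479 bp from its start and had 4, 0 and 0 against 0, 0 and 1 counts. The row lies 53.9 Mb from Lims1, on the other side of that gene from Zdhhc17. A nearby row on the same strand, Gm16153 (chr10:4409033-4423369), pointed the other way without passing, with 96, 99 and 98 against 168, 134 and 181 counts. Its partner Rmnd1, a mitochondrial translation factor, had no more than 6 counts in any library.

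**Figure D1:**
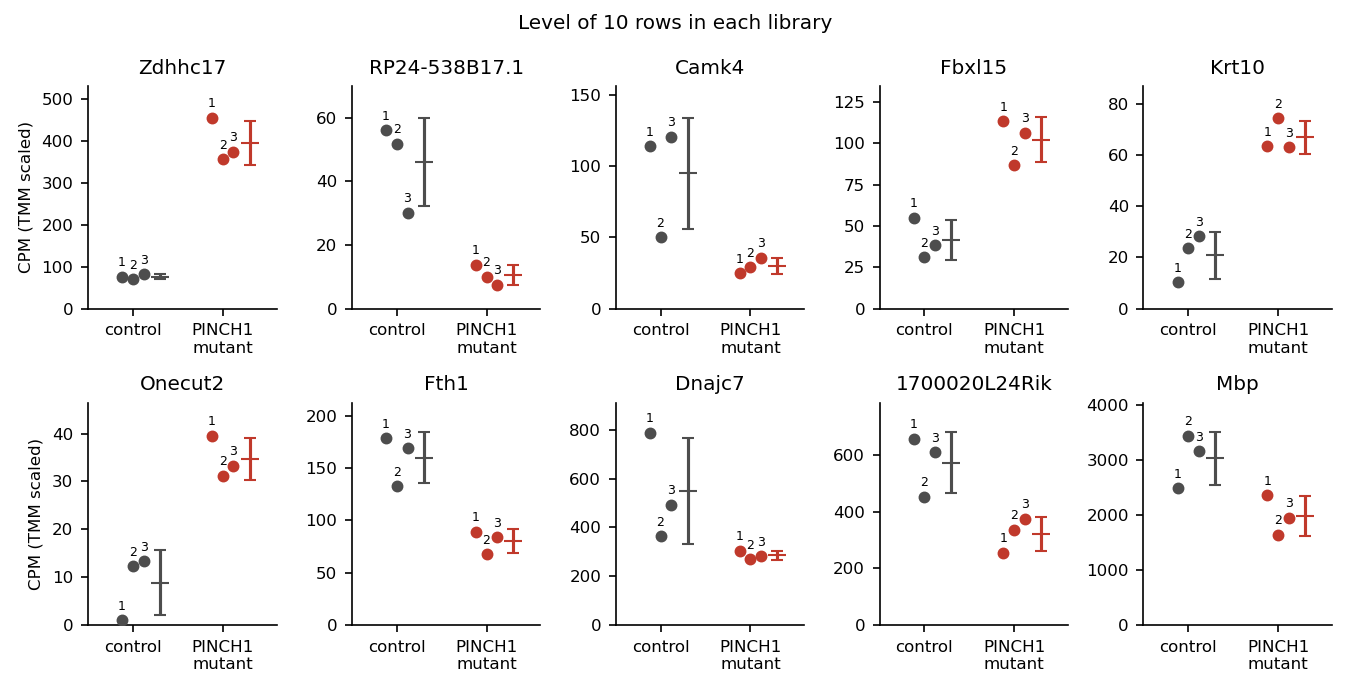
CPM after TMM scaling (linear axis from 0) of 10 rows in the 3 control (grey) and 3 PINCH1 mutant libraries (red). Points are libraries with their replicate number, and the bars beside them are mean ± SD (n = 3). Zdhhc17 rose and Camk4 and RP24-538B17.1 fell at an adjusted p under 0.05, and the other 7 rows did not pass although their groups do not overlap.

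The rows next in order were taken only where the CPM of the groups did not overlap, and none passed. On the higher side, 12 of 14 such rows had a partner, beside 217 of all 279 rows that were higher with no overlap. Fbxl15, named for an F-box protein of a ubiquitin ligase, had 53, 33 and 43 counts in controls and 123, 78 and 128 in mutants, with a log2 fold change of 1.31 (SE 0.27, edgeR adjusted p of 0.0945). Its partner Cuedc2 had 449, 562 and 458 against 460, 499 and 485 counts, a log2 fold change of -0.02 (SE 0.19). The ratio of the row to its partner, which meet at their ends, did not pass (limma adjusted p = 0.230). Krt10, a keratin of differentiated epidermis, had 10, 25 and 32 against 69, 67 and 76 counts and a log2 fold change of 1.67 (SE 0.36, edgeR adjusted p = 0.132). The row over it, Gm11940, was at 0 in all 6 libraries.

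Gm10706 lay over Piwil4, a piRNA pathway gene of the germ line. It had 3, 0 and 0 counts in controls and 25, 11 and 24 in mutants, and Piwil4 was at 0 in 5 of the libraries and at 4 counts in mutant library 3. The totals of 60 and 3 counts gave a ratio of 19.8, with an exact 95% counting interval of 6.45 to 98.5 that does not cover the spread between libraries. Padi1, a peptidylarginine deiminase gene of skin, had 2, 2 and 5 against 22, 13 and 16 counts. Its partner Gm13032 had 27, 1 and 6 against 10, 12 and 12, a log2 fold change of -0.06 (SE 0.76). Onecut2, a neural transcription factor gene without a partner or near neighbour, had 1, 13 and 15 against 43, 28 and 40 counts.

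Other rows on this side lay over genes of known function. Ggnbp1 lay over Bak1, an effector of mitochondrial apoptosis, and its log2 fold change was 0.57 (SE 0.17), while that of Bak1 was 0.02 (SE 0.37). Gm15851 lay over Prelp, a matrix proteoglycan gene, with 157, 266 and 161 against 330, 239 and 366 counts, and Prelp had at most 5. In CPM the groups of Gm15851 did not overlap, although its counts did. Gm12953 lay over Tmem69 and B630019A10Rik over BC106179. Usp8, a deubiquitinase gene of endosomes, spanned Gm10774 and overlapped Usp50 at their ends, without shared exons. Bhlhe22, a neural transcription factor gene, had no partner and a log2 fold change of 0.80 (SE 0.22). The adjusted p of these 6 rows was 0.293 to 0.476.

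On the lower side, 8 of the 13 rows that came next had no partner, beside 220 of all 319 rows that were lower with no overlap. Fth1, the heavy chain of ferritin, which stores iron, had 172, 141 and 190 counts in controls and 97, 61 and 101 in mutants, with a log2 fold change of -0.99 (SE 0.22, edgeR adjusted p = 0.162). The nearest row on the other strand, Best1, was 82 bp away and never exceeded 3 counts. Taldo1, an enzyme of the pentose phosphate pathway, had 19, 24 and 26 against 3, 7 and 5 counts. Stard13 had 20, 20 and 24 against 7, 3 and 4. Vim, the intermediate filament of Schwann cells and fibroblasts, had 153, 242 and 249 against 142, 114 and 135. In each of these the control libraries had the higher CPM, and none passed.

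Genes of myelinating Schwann cells were among these rows. Mbp, a major protein of compact myelin, had 2393, 3645 and 3548 counts in controls and 2558, 1472 and 2341 in mutants, which overlapped as counts but not as CPM. Its log2 fold change was -0.61 (SE 0.17, adjusted p = 0.392). Nfasc, whose products hold the node of Ranvier and the paranode together, had 24, 50 and 35 against 9, 7 and 22 counts and a log2 fold change of -1.55 (SE 0.43). Ndrg1 had 268, 359 and 457 against 234, 215 and 267, a log2 fold change of -0.60 (SE 0.17). Of the rows over Ndrg1, Gm17035 had -0.09 (SE 0.14) and Gm2895 had 0.18 (SE 0.33), and neither ratio to Ndrg1 passed.

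A few rows of the lower side did have partners. Dnajc7, a co-chaperone gene, lay over Cnp, a myelin enzyme, and over Nkiras2, and had 759, 386 and 554 against 330, 243 and 338 counts, with a log2 fold change of -0.94 (SE 0.23, edgeR adjusted p = 0.226). Cnp had -0.12 (SE 0.15) and Nkiras2 0.16 (SE 0.23). 1700020L24Rik lay end to end with Mmp28, a gene of a secreted metalloproteinase, and had 632, 480 and 685 against 277, 301 and 450 counts, while Mmp28 had 18, 14 and 23 against 42, 23 and 42. Ecscr, an endothelial gene, had 33, 36 and 30 against 13, 14 and 7 counts, and its partner 1700066B19Rik a log2 fold change of -0.05 (SE 0.16). Rnf10, a ubiquitin ligase gene, had 16, 27 and 37 against 11, 5 and 9 counts. Eftud2, a spliceosome GTPase, stood at -0.83 (SE 0.23), and its neighbour Ccdc103, 219 bp away, was at 0 in all 6 libraries. The annotated gene opposite it, Gm26668, was not in the rows analysed here. Gm20431 had -1.51 (SE 0.44), beside Gm11476 at 0 or 1 count.

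Rows with and without a partner differed in their median change. The 2462 rows with a partner held 89.4% of the counts and had a median log2 fold change of 0.06, with 42.0% of them below 0. The 1978 rows without a partner had a median of -0.16, with 63.9% below 0, beside -0.02 and 51.8% over all rows. At an unadjusted p under 0.05, 79 rows with a partner were higher and 54 lower, against 18 higher and 124 lower among those without. The same contrast stood at 50 CPM or more, with medians of 0.07 over 1282 rows with a partner and -0.12 over 328 without.

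By arrangement, the median of rows with a partner was 0.05 for the 1182 rows that overlapped their partner at the ends, 0.08 for 555 that overlapped at the starts, 0.10 for 417 inside their partner and -0.02 for 308 that held it. Among rows without a partner it was -0.13 for 557 whose neighbour faced them end to end, -0.11 for 287 start to start and -0.22 for 1134 with no neighbour within 5000 bp.

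In the single libraries this appeared as the level of rows without a partner relative to those with one. The median log2 CPM of rows without a partner minus that of rows with one was -1.45, -1.31 and -1.37 in the controls and -1.56, -1.72 and -1.60 in the mutants. The groups did not overlap and differed by -0.25 (two-sided exact permutation test, p = 0.1, the smallest p that 3 against 3 allows). The share of counts on rows with a partner was 89.8%, 89.0% and 87.4% in controls and 89.2%, 91.4% and 89.5% in mutants. Those shares overlapped, with means of 88.8% ± 1.22 and 90.0% ± 1.23 (SD, n = 3 each; two-sided exact permutation test, p = 0.4).

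Rows with and without a partner were also scaled separately, which by design brings the median of each class near 0. The medians were then 0.00 with a partner and 0.01 without. Under that scaling Zdhhc17 still passed, and Camk4 and RP24-538B17.1 both had an adjusted p of 0.109 by edgeR. Because the classes differed in median under the main scaling, values of rows without a partner below are read against their own median of -0.16.

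**Figure D2:**
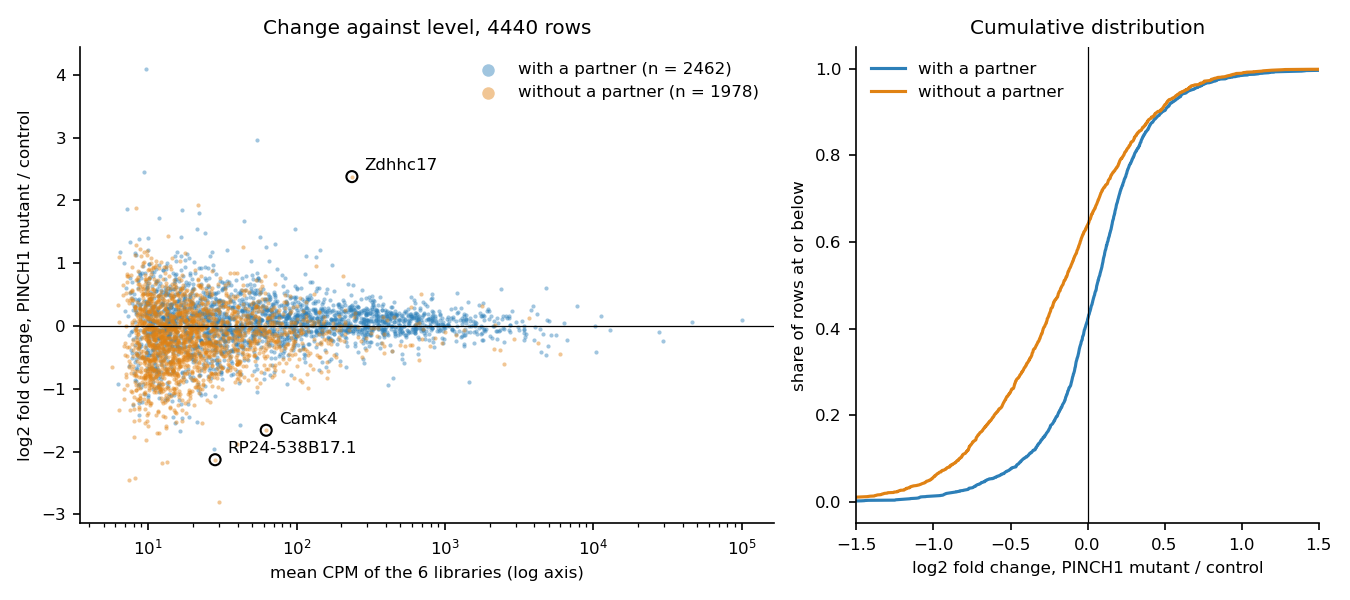
Left, log2 fold change (PINCH1 mutant over control) of the 4440 rows against their mean CPM in the 6 libraries (log axis), blue with a partner and orange without, with the 3 rows that passed circled. Right, cumulative share of rows at or below each log2 fold change: the curve without a partner lies to the left, with 63.9% of rows below 0 against 42.0%.

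For 858 pairs both rows passed the filter, so that the ratio of the 2 strands could be tested. The log2 fold changes of plus and minus rows had a correlation across pairs of 0.11, and 469 of 858 pairs had the same sign. The rows of a pair share libraries and, near the overlap, position, so this describes the pairs and was not tested. By arrangement it was 0.12 for 489 pairs that met at their ends, -0.01 for 195 that met at their starts, 0.36 for 89 with the plus row inside the minus row and 0.04 for 85 with the minus row inside the plus row.

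In 1 pair (0.117%) the ratio differed between the groups. Nespas and Gnas overlap at their starts over 11117 bp of the imprinted Gnas locus, where Gnas encodes the stimulatory G protein subunit and its alternative products and Nespas is an antisense transcript. Gnas had 66, 107 and 64 counts in controls and 63, 38 and 41 in mutants. Nespas had 47, 154 and 75 in controls and 274, 131 and 191 in mutants. As counts, Nespas overlapped between the groups, and the highest Gnas value in mutants was just under the lowest in controls. As CPM it was Gnas that overlapped. Nespas did not, with at most 145.2 CPM in controls and at least 145.9 in mutants. Their ratio was clear of overlap: Gnas over Nespas was 1.40, 0.70 and 0.85 in controls and 0.23, 0.29 and 0.22 in mutants.

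The log2 ratio fell by 1.94 (SE 0.32, limma adjusted p = 0.00653). Its adjusted p was 0.0806 without control library 1, and 0.0682 and 0.0641 without mutant library 1 or 3. For Gnas alone the log2 fold change was -0.75 (SE 0.29) and for Nespas alone it was 1.09 (SE 0.33, edgeR adjusted p = 0.496). Nespas passed without control library 2, with 1.67 (SE 0.27, edgeR adjusted p = 0.00603), and with no filter on low counts (adjusted p = 0.00413). The annotation also has Gm27849 and Gm27869 opposite Nespas, which were not in the rows analysed here. Gm20721, also opposite Gnas, had 44402 to 52552 counts in controls and 46652 to 53735 in mutants, a log2 fold change of 0.07 (SE 0.12). Gm20721 thus overlapped between the groups.

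Another 41 pairs had an unadjusted p under 0.05 without passing, out of 42 in all (4.9%), 23 with a higher and 19 with a lower ratio of plus to minus row. Next were Pop5 over Rnf10, with a log2 difference of 2.03 (SE 0.45), and 1700020L24Rik over Mmp28, with -1.74 (SE 0.40), both at an adjusted p of 0.0961 by limma. Pop5, an RNase P subunit gene, had 17, 25 and 29 against 49, 22 and 28 counts. The pair of Nkiras2 and Dnajc7 had 1.01 (SE 0.27) and that of Fbxl15 and Cuedc2 had 1.35 (SE 0.35). S100b, a calcium-binding protein of Schwann cells, had 24, 63 and 65 against 39, 17 and 34 counts, while its partner Dip2a had 28, 52 and 49 against 71, 62 and 83. Their ratio had a log2 difference of -1.48 (SE 0.40, limma adjusted p = 0.245).

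**Figure D3:**
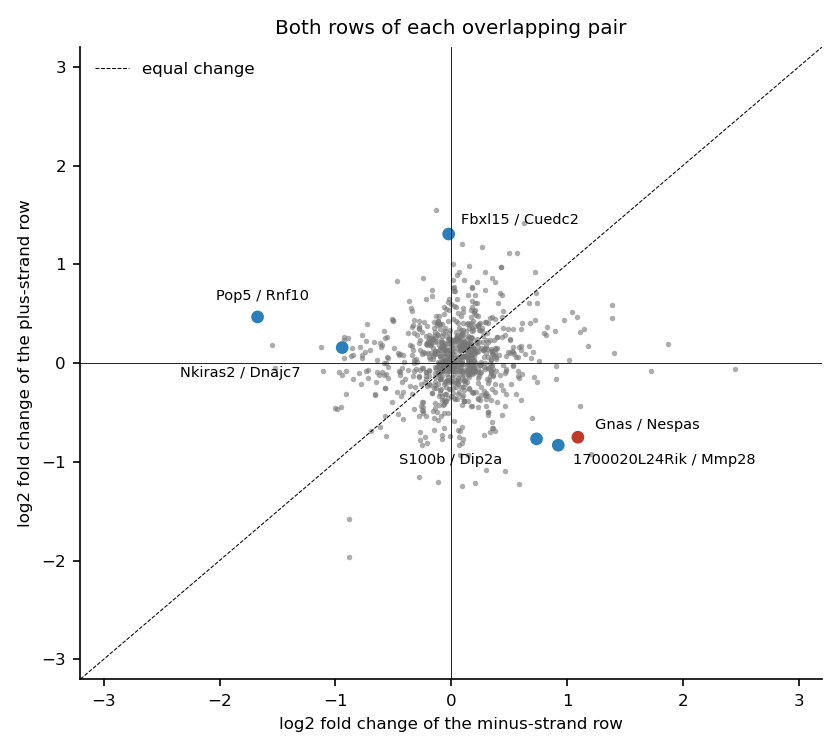
Log2 fold change (PINCH1 mutant over control) of the plus-strand row against that of the minus-strand row for 858 overlapping pairs. Gnas and Nespas, the pair whose ratio passed, are red at -0.75 and 1.09, and the next 5 pairs are blue. Points on the dashed line would have equal change on both strands.

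The gene lists were read both ways, by the rows that carry a gene's name and by the rows that lie over it. A list member that passed the filter only through the group where it was high had to differ, so the counts below are descriptions. Among the 19 function lists, Zdhhc17 and Camk4 were the only members that passed. Of 6 palmitoyltransferase rows, Zdhhc5, the enzyme with the highest counts and partner Med19, stood at 0.16 (SE 0.20) on the log2 scale and Zdhhc2, with partner Cnot7, had 0.36 (SE 0.23). Among the calcium and calmodulin dependent kinases, Camk1, with partner Ogg1, had 0.00 (SE 0.31). Besides Zdhhc17, the palmitoyltransferase rows ran from -0.44 for Zdhhc3, with partner Tgm4, to 0.39 for Zdhhc8, which had none.

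Rows named for myelin protein genes were mostly below 0, and rows lying over them were not. Of 30 genes, 29 were in the table and 23 rows passed the filter, 7 of them with a partner. In 19 of the 23 the log2 fold change was below 0, and the median was -0.36. In 8 of the 23 the unadjusted p was under 0.05 on the lower side, and 8 had a lower CPM with no overlap. These were 4.01% and 7.18% of all rows, and 124 and 220 of the 1978 rows without a partner. Pmp22, a tetraspan protein of compact myelin, had 4672, 4570 and 5332 counts in controls and 4569, 3483 and 4163 in mutants. Its log2 fold change was -0.27 (SE 0.13), that of Mbp was -0.61 (SE 0.17) and that of Prx was -0.53 (SE 0.18). None passed. For any gene in these pooled nerves, fewer cells of a type and less RNA per cell cannot be told apart.

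Summed over all 29 rows of the table, tested or not, myelin genes held 17008, 18705 and 19633 CPM in controls and 15251, 13269 and 13535 in mutants, with no overlap. When the classes were scaled separately the median was -0.20. The 7 tested rows over myelin genes gave another picture, with 4 above and 3 below 0 and a median of 0.17. Gm12927, over the claudin gene Cldn19 of Schwann cell autotypic junctions, had 1666, 1713 and 1922 against 2028, 1691 and 2305 counts, a log2 fold change of 0.17 (SE 0.15). Gm15541, over Prx, ranged from 4819 to 11426 in controls and from 3018 to 13010 in mutants, with the lowest value in mutant library 2. Summed, all 11 rows of the table over myelin genes held 31835 to 43780 CPM in controls and 37187 to 40036 in mutants. By name the groups did not overlap, and by overlapping rows they did.

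Rows named for lipid synthesis genes were mostly below 0. Fatty acid and myelin lipid genes had 15 tested rows, of which 12 were below 0, with a median of -0.36, or -0.18 with separate scaling, and no tested row lay over a gene of this list. In 5 of the 15 the CPM was lower with no overlap, beside 7.18% of all rows and 220 of the 1978 rows without a partner. Scd2, a stearoyl-CoA desaturase, had -0.33 (SE 0.16), Ugt8a, which makes galactosylceramide, had -0.22 (SE 0.23) and Pmp2, a fatty acid carrier of myelin, had 0.07 (SE 0.35). Of 14 cholesterol synthesis rows, 11 were below 0 with a median of -0.32, or -0.26 with separate scaling, and the most counted, Fdft1 or squalene synthase, with partner Ctsb, had 806, 812 and 746 against 778, 876 and 955 counts and a log2 fold change of 0.13 (SE 0.16). None of these passed.

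Myelination transcription factors were mixed. Of 15 rows, 6 were above and 9 below 0, with a median of -0.10 that became 0.05 when the classes were scaled separately. The most counted were Zeb2, which represses inhibitors of myelination and has the partner Gm13476, at 0.13 (SE 0.17), Nab2, a partner of EGR proteins, at 0.08 (SE 0.19), and Yy1, at -0.10 (SE 0.35). Nab2 has the partners Stat6, Tmem194 and Gm16229, and Gm16229 had 537, 886 and 1167 against 1114, 590 and 1234 counts and a log2 fold change of 0.16 (SE 0.21). None of these passed.

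Rows of the complex to which PINCH1 belongs did not pass. From the list of focal adhesion genes and partners of integrin-linked kinase, 15 of 28 passed the filter, with 5 above and 10 below 0 and a median of -0.11 that became 0.04 with separate scaling. With no overlap in CPM, 4 of the 15 were lower and 1 higher, beside 7.18% and 6.28% of all rows. Ilk had 152, 161 and 202 counts in controls and 211, 151 and 199 in mutants, a log2 fold change of 0.11 (SE 0.18). Taf10 and Rrp8 lie over Ilk and had 0.00 (SE 0.13) and 0.19 (SE 0.18). Itga6, a laminin receptor subunit, had -0.29 (SE 0.19). Pxn, which encodes paxillin, had 55, 93 and 145 against 282, 74 and 230 counts, a log2 fold change of 0.96 (SE 0.38, edgeR adjusted p = 0.708), with mutant library 2 inside the range of the controls. Ap3m1, over the vinculin gene Vcl, had 0.10 (SE 0.14).

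Rows named for actin genes were mostly below 0, and none passed. The list of actin genes and serum response factor targets had 17 tested rows, 14 of them below 0, and its median was -0.62, or -0.44 with separate scaling. In 3 of them the unadjusted p was under 0.05 on the lower side, beside 4.01% of all rows and 124 of the 1978 rows without a partner. With no overlap in CPM, 4 were lower and 1 higher. Over all rows those shares were 7.18% and 6.28%, and without a partner 220 and 62 of 1978. Tmsb4x, the actin-sequestering thymosin, had 131, 158 and 152 against 133, 62 and 133 counts, with the low value in mutant library 2. Tagln, an actin-binding protein of smooth muscle with partner Pcsk7, had 0.02 (SE 0.25), and Actb 72, 104 and 97 against 58, 57 and 62 counts, a log2 fold change of -0.62 (SE 0.26, edgeR adjusted p = 0.696). The 4 rows over such genes had a median of 0.01, which became -0.05 with separate scaling.

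Rows named for basal lamina genes were mostly below 0, and none passed. Of 19 such rows, 5 with a partner, 14 were below 0 with a median of -0.25, beside -0.16 for rows without a partner. In 2 the unadjusted p by edgeR was under 0.05 on the lower side, and 3 had a lower CPM with no overlap. Over all rows those shares were 4.01% and 7.18%. Drp2, which links periaxin to the dystroglycan complex, had 211, 194 and 348 against 199, 111 and 188 counts and -0.62 (SE 0.21), while Lamb1, a laminin chain, had 0.02 (SE 0.25). The type IV collagen genes Col4a1 and Col4a2 are partners of each other, beside Gm15418 and Gm15419, and had -0.51 (SE 0.22) and -0.39 (SE 0.32). The median of the list was -0.08 with separate scaling.

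Cell cycle rows were mostly above 0 in both readings. Of 30 genes, 9 passed the filter by name, 8 of them above 0, with a median of 0.27. The rows that lay over such genes numbered 8, some of them also counted by name, with 6 above 0 and a median of 0.35. A partner was present for 6 of the 9 and for all 8. Over all rows with a partner the median was 0.06, with 42.0% below 0. Both list medians stayed above 0 in each scaling tried, and no row passed. Kif20a, a kinesin of cytokinesis, had 553, 917 and 681 counts in controls and 886, 966 and 1053 in mutants, a log2 fold change of 0.44 (SE 0.18, edgeR adjusted p = 0.679). Its partner Cdc23, a subunit of the anaphase promoting complex, had 39, 212 and 120 against 270, 209 and 245. Each is the partner of the other, so both are counted in both readings.

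Oraov1 lay over Ccnd1, which encodes cyclin D1, and had 2754, 5842 and 3449 counts in controls against 6057, 6105 and 6114 in mutants. Control library 2 was close to the mutants, and the log2 fold change was 0.61 (SE 0.31, adjusted p = 0.810). Ccnd1 by name had 128, 105 and 100 against 121, 108 and 166, a log2 fold change of 0.21 (SE 0.21). Ccna2, cyclin A2, had 123, 197 and 134 against 196, 215 and 265, and Exosc9, which lies over it, had 24, 150 and 58 against 203, 119 and 184. In Oraov1, Ccna2 and Exosc9, control library 2 had the highest control count.

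All 4 tested iron storage and metallothionein rows were below 0, with a median of -1.07, or -0.90 with separate scaling, and no row lay over any of them. Their summed CPM was 287, 253 and 276 in controls and 191, 109 and 165 in mutants. Ftl1, the ferritin light chain, had 62, 100 and 87 against 93, 26 and 85 counts, and Mt1, a metallothionein, had 19, 22 and 15 against 5, 11 and 9. Heat shock genes were even, with 8 of 16 rows above 0 and a median of 0.01. Immediate early genes had 3 rows, of which Jund, with partner Gm11175, had 287, 462 and 430 against 404, 382 and 514 counts.

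Rows named for ribosomal and respiratory genes were mostly below 0, and none passed. Of 68 rows for cytosolic ribosomal proteins, 54 were below 0 with a median of -0.24, or -0.09 with separate scaling. In 10 the CPM was lower with no overlap, beside 7.18% of all rows and 220 of the 1978 rows without a partner. Only 14 of the 68 had a partner. Rps25, with partner Ccdc84, had 239, 161 and 184 against 198, 136 and 180 counts and Rpl10a 235, 179 and 188 against 112, 135 and 163. The 10 rows over ribosomal genes had a median of 0.09, and the most counted, Tlcd1 over Rpl23a, had 5108, 4929 and 5411 against 5711, 5128 and 5564. Of 13 nuclear-encoded respiratory chain rows, 9 were below 0 with a median of -0.25, or -0.31 with separate scaling. A lower CPM with no overlap was found in 4 of the 13, beside 7.18% of all rows. The 9 rows over such genes had a median of 0.02, which became -0.03 with separate scaling. In 4 of them the CPM was higher with no overlap, beside 6.28% of all rows and 217 of the 2462 rows with a partner. Mrpl47, over Ndufb5 and Actl6a, had 592, 636 and 608 against 699, 596 and 742 counts.

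**Figure D4:**
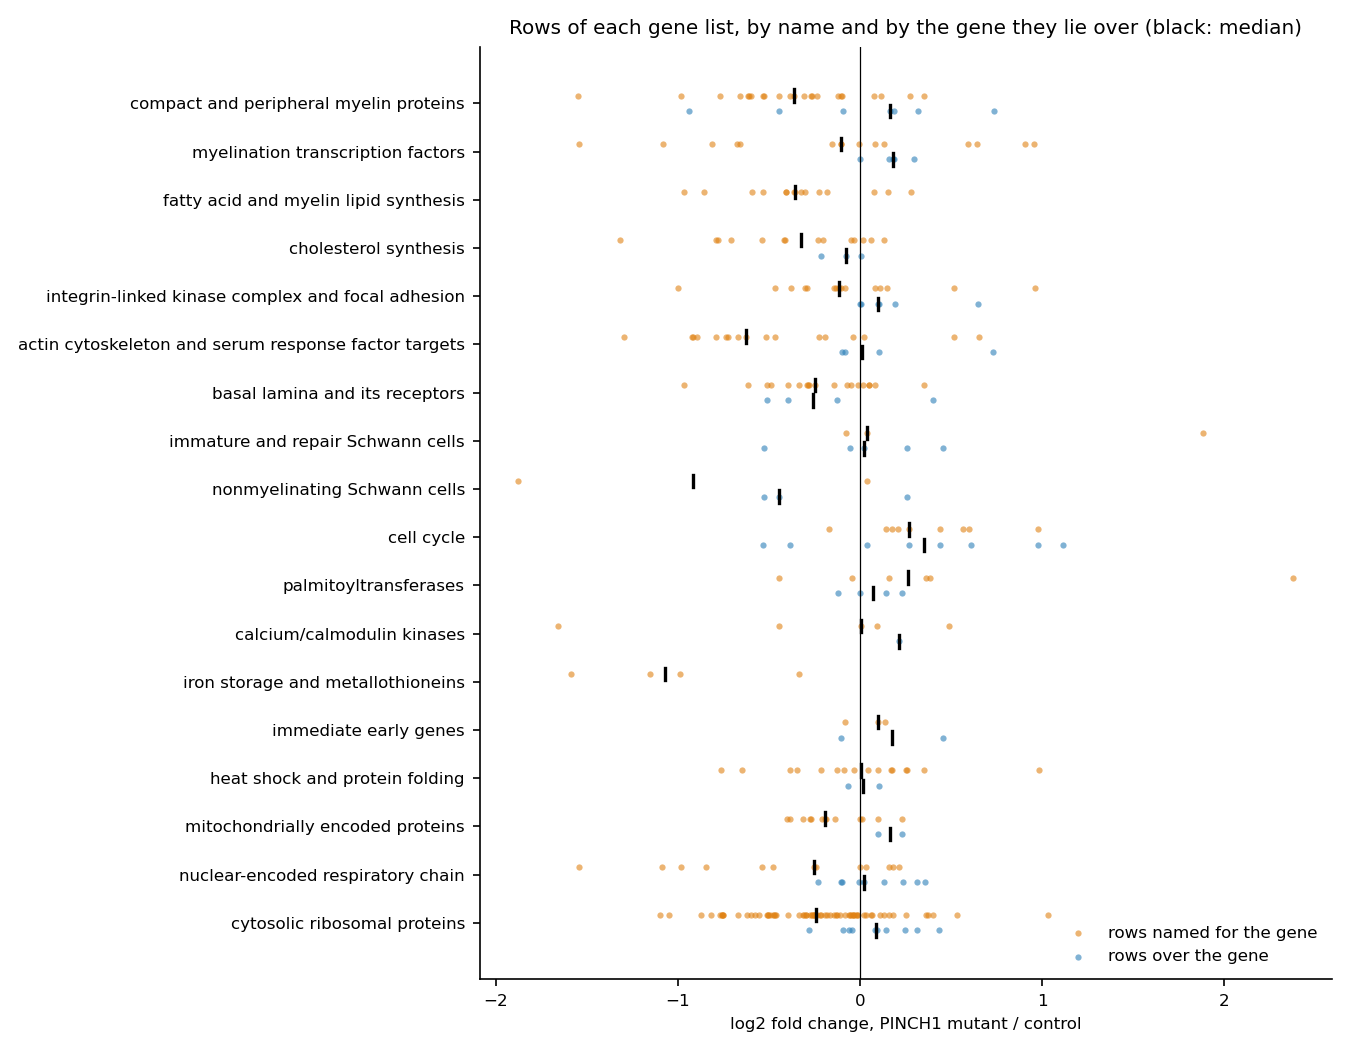
Log2 fold change (PINCH1 mutant over control) of the tested rows in the gene lists named on the vertical axis. Orange points are rows named for a gene of the list, blue points are rows that lie over one on the opposite strand, and black ticks are medians. Myelin proteins have a median of -0.36 by name and 0.17 by overlap, and cell cycle genes 0.27 and 0.35.

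Markers of Schwann cells were present in every library. Of 10 marker genes, 9 passed the filter by name, with summed levels of 9144 to 11086 CPM in controls and 6824 to 8038 in mutants. Sox10, a transcription factor that defines the lineage, had 32, 55 and 55 against 38, 24 and 28 counts. Markers of immature and repair Schwann cells were scarce by name, with 3 of 20 tested, and those of nonmyelinating Schwann cells had 2 of 10. Scn7a, a sodium channel of nonmyelinating Schwann cells, had 25, 61 and 118 against 7, 11 and 38 counts, a log2 fold change of -1.88 (SE 0.53, edgeR adjusted p = 0.428). Gm11149, over the adhesion gene Ncam1 that such cells express, had 301, 335 and 411 against 173, 256 and 295. Neither passed.

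Rows named for markers of other cell types differed in level. Because the strand of most counts was in doubt, a row at or near 0 does not show that a cell type was absent. No lymphocyte marker was tested, with 7 of 9 rows at 0 in all 6 libraries, and no mast cell or neutrophil marker was, with 9 of 10 at 0. Macrophage markers had 2 tested rows, Csf1r (partner Hmgxb3) with 607, 699 and 601 against 552, 545 and 704 counts, and Cd163. Of 7 fibroblast rows, 5 were below 0 with a median of -0.18, which became 0.00 with separate scaling, and all 4 perineurial rows were below 0. Endothelial markers had 2 tested rows, which summed to 37.3 to 47.2 CPM in controls and 15.8 to 25.6 in mutants, Ecscr being described above. All 12 endothelial rows of the table summed to 62.2 to 70.8 CPM in controls and 38.7 to 54.6 in mutants. Both sums include Ecscr, with 26.7 to 34.3 CPM in controls and 5.82 to 15.6 in mutants. That row was named because its groups did not overlap, so neither sum is a check separate from it. Of the skin markers only Krt10 was tested and 8 of 11 rows were at 0 in all libraries.

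Some rows that lie over skeletal muscle genes were high in a single library. Ube2c, named for a ubiquitin-conjugating enzyme of mitosis, lies over Tnnc2, the fast muscle troponin C gene, and had 14, 3 and 21 counts in controls and 0, 255 and 8 in mutants. Rabep2, over Atp2a1, the calcium pump of fast muscle, had 24, 34 and 38 against 32, 181 and 20. Mutant library 2 had by far the highest count in both. Gm14492, which overlaps the start of Tnnt3 and the end of Lsp1 without shared exons, had 9, 22 and 9 against 45, 19 and 52 counts. It was not high in that library. A930016O22Rik, over Ckm, the muscle creatine kinase gene, did not reach the filter and had 0, 0 and 41 against 1, 261 and 0 counts. It was looked up after the others had been seen. All 8 rows of the table over muscle markers summed to 55.0 to 102 CPM in controls, 80.1 and 66.6 in mutant libraries 1 and 3 and 800 in mutant library 2. The 3 tested ones summed to 48.8 to 60.4 CPM in controls, 70.9 and 66.6 in mutant libraries 1 and 3 and 507 in mutant library 2. All 12 rows named for muscle genes summed to 27.8 CPM in mutant library 2 and 31.3 in mutant library 1. Which strand these counts come from, and the part of muscle RNA in the results, were not tested. Without this library Zdhhc17 still passed, with an adjusted p of 5.24e-07 by edgeR, and the ratio of Gnas to Nespas had an adjusted p of 0.00733.

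**Figure D5:**
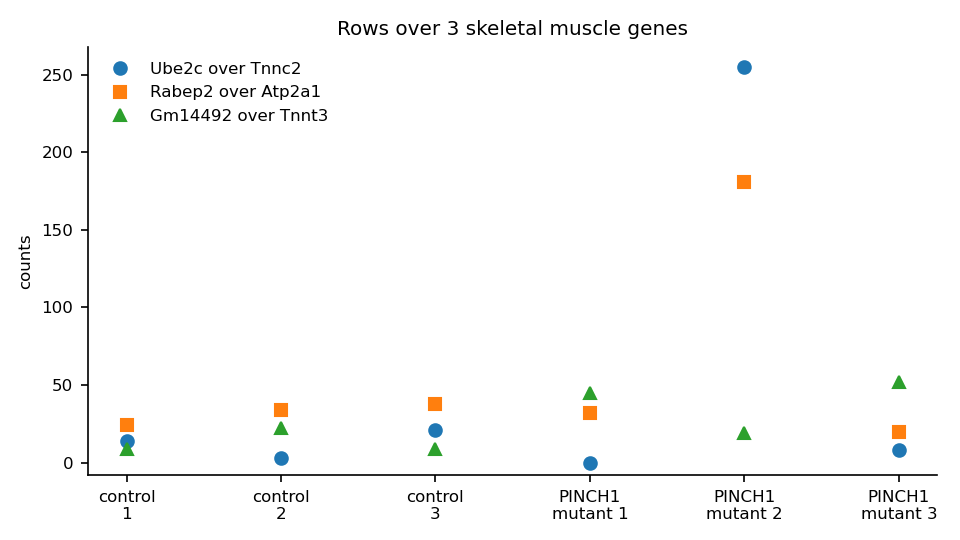
Counts (linear axis) in each of the 6 libraries of the 3 tested rows that lie over skeletal muscle genes. Ube2c over Tnnc2 and Rabep2 over Atp2a1 stand at 255 and 181 counts in PINCH1 mutant library 2 and at 38 or fewer elsewhere, while Gm14492 does not follow them.

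Over all rows, 6.19% had an unadjusted p under 0.05. Every autosome and chromosome X held such rows, from 2.29% on chromosome 16 to 11.8% on chromosome 18. Of 85 rows on chromosome 18, where Camk4, Mbp, Ecscr and Onecut2 lie, 10 had an unadjusted p under 0.05 (11.8%), and on chromosome 19, with Fth1 and Fbxl15, 15 of 156 did (9.62%). On chromosome 10, which carries Lims1 and 2 of the rows that passed, it was 15 of 207 (7.25%), near the share over all rows. Among 22 rows within 10 Mb of Lims1, none had an unadjusted p under 0.05 and their median log2 fold change was 0.09.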

How the data were processed

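TruSeq libraries of total RNA from sciatic nerves were sequenced, per the labels' protocols, and the authors deposited 1 table of whole-number counts for 9 libraries. Trim Galore 0.4.2, cutadapt 1.9.1, HISAT2 2.0.5 and build GRCm38 are named in the submitters' processing notes. The sources used here do not give the counting tool, its strand setting or the annotation, so a row and its partner cannot be told apart from the table alone. The labels call the pools biological replicates.

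Partners and neighbours (nearest opposite-strand row within 5000 bp) were taken from the table's coordinates, and exons from GENCODE M21, matched by gene identifier for 98.7% of tested rows. edgeR 4.0.16 (R 4.3.3) fitted 1 model with a genotype term to the 9 libraries, with TMM scaling and the robust quasi-likelihood test, with Benjamini-Hochberg adjustment over 4440 rows. SE is the log2 fold change divided by the root of F. limma 3.58.1 tested log2 of the ratio of the 2 rows of a pair with a pseudocount of 0.5. The fits were also run on simulated counts with known changes, drawn independently for each row from the fitted spread. Those counts lacked the difference between rows with and without a partner, and their outcome is not reported here. The common biological coefficient of variation was 0.266, and no 2 replicates agreed within sampling noise (chi-square per degree of freedom of 4.4 to 13.3).

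Named were the targeted genes with their partners, the rows that passed, the next rows by p whose CPM did not overlap up to 15 in each direction, the partner or neighbour of each, the passing members or else the 3 most counted of each list, the 6 pairs with the smallest p and the 10 most abundant rows. Zdhhc5, Zdhhc2, Zdhhc3, Zdhhc8, Camk1, Sox10 and A930016O22Rik fall outside that rule and were named after their values were seen. The members and the 32 lists were chosen with earlier results of these data known. Alternatives were other scalings and filters, DESeq2 1.42.0, limma-voom, the 6 libraries alone, a replicate block and leaving out each library. A few genes that the rule names are not reported here.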

Additional observations from a re-analysis of the deposited data

How the results depend on the processing

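The count of higher rows, 1 by edgeR, was 3 with DESeq2, 8 with no filter (15595 rows tested) and 5 with a filter of 1 CPM in 3 libraries, and 1 to 2 when a library was left out (2 without control library 2). The count of lower rows, 2, was 7 with no filter and 4 with the filter of 1 CPM. It was 0 with the classes scaled separately, with limma-voom, with the 6 libraries only, with a fold of at least 1.5 and at an adjusted p under 0.01, and 0 to 2 when a library was left out: 2 without control library 2, 1 without control library 3 and 0 without control library 1 or any mutant library. Unadjusted p under 0.05 was met by 315 rows with 6 libraries and by 270 with limma-voom. The count of pairs with a lower ratio, 1, was 0 to 1 when a library was left out, and that of pairs with a higher ratio, 0, was 0 to 1 (1 without control library 2).

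Same-numbered libraries had correlations of -0.117, 0.117 and 0.0958 in their deviations, within the -0.208 to 0.163 of differently numbered ones. The correlations gave no sign of a pairing by number, but with 3 libraries per group they cannot exclude one. With the replicate number as a block, 1 row was higher, 0 lower and 299 had an unadjusted p under 0.05, and the ratio counts were 0 higher and 1 lower. Control library 2 correlated best with its own number, and control libraries 1 and 3 with mutant libraries 2 and 1 (0.0699 and 0.163).

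Of 535 values of 30 named rows under alternatives, 500 stayed on the same side of the threshold, 17 newly passed, 18 no longer passed and 0 reversed. Library totals of at most 1204398 counts limit what rows near 10 counts can show, Lims1 among them. The causes of these changes were not tested.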
